A study of Mus musculus with 6 samples.

Results

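Neuroblasts of the adult SVZ, the type A cells, were the largest NSPC subtype in the sorted cells of this study. They were taken as the cells that the authors' cell table names NSC and, at the finer level, Neuroblast, in all conditions, which gave 80 of the 658 cells kept and 80 of the 222 NSPCs. The other NSPCs were 47 type C cells, 45 activated and 50 quiescent type B cells, 416 cells were microglia, and the remaining 20, which the authors name Unknown/Ependymal, entered no class compared here. All mice carried Nestin-CreERT2:R26-yfp, in which tamoxifen starts YFP expression in cells with an active nestin driver and in their progeny, so that a sorted YFP + neuroblast was either marked itself or born from a marked cell. The 3 conditions were uninjured mice, mice 1 day after photothrombotic ischemia of the cortex (PT D1) and mice 7 days after it (PT D7), a lesion made by Rose Bengal and light, and each had 2 mCEL-Seq2 libraries of flow-sorted YFP + NSPCs and CD11b+CD45low microglia. The mice of this line were 8 to 12 weeks old when tamoxifen was given, and PT followed 5 to 14 days after its last dose. No source used here states the number of mice behind a library, so the spread between libraries, which sets every p-value below, may be technical.

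Neuroblasts are born from type C cells, the transit-amplifying progeny of activated type B stem cells, and migrate as chains through the rostral migratory stream to the olfactory bulb, where most become GABAergic interneurons. They are unusual among neuronal precursors in that some of them still divide while they migrate. A migrating neuroblast is held together by microtubules and their partners, among them doublecortin and the stathmins, and by adhesion molecules of the polysialylated NCAM family.

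The neuroblasts of the 2 uninjured libraries numbered 6 and 29, those of the PT D1 libraries 4 and 15, and those of the PT D7 libraries 5 and 21. They were 37.5% (95% exact binomial interval 15.2 to 64.6) and 49.2% (35.9 to 62.5) of the NSPCs of the uninjured libraries, 21.1% (6.05 to 45.6) and 28.8% (17.1 to 43.1) of those of the PT D1 libraries, and 33.3% (11.8 to 61.6) and 34.4% (22.7 to 47.7) in the PT D7 libraries. The uninjured libraries lay above all 4 PT libraries, with wide intervals that cover counting error alone, and the shares are of cells kept after the YFP + sort; 2 libraries against 2 cannot give an exact permutation p under 0.333. Activated type B cells outnumbered neuroblasts at PT D1 (25 against 19). Type C cells did so in the library 1 of PT D1 (5 against 4) and of PT D7 (6 against 5). The neuroblasts held 460118 UMIs in all, and the sums per library were 33249, 214209, 18120, 62939, 20064 and 111537 UMIs in the same order of conditions. The library 2 of each condition therefore carried most of the depth. A neuroblast had a median of 5698.5 UMIs, against 8493 in type C cells, 8583 in activated and 5302.5 in quiescent type B cells, and its median mitochondrial share was 11.5%. Well barcodes repeat between plates by design, and 22 of the 52 barcodes of neuroblasts occurred in neuroblasts of more than 1 library.

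The 5 neuroblast markers were Dcx (doublecortin, a microtubule-binding protein of migrating neurons), Stmn2 and Stmn4 (neuronal stathmins, which regulate microtubule growth), Tubb3 (the neuronal beta tubulin) and Cd24a (a surface glycoprotein used to sort neuroblasts). As UMIs per 1000000 UMIs of the summed cells (CPM), Tubb3 was at 1317 in neuroblasts, 587 in type C cells, 115 in activated and 39.8 in quiescent type B cells. The levels of Stmn2 were 1098, 261, 33.6 and 23.2 CPM in the same order, those of Cd24a 1058, 637, 118 and 86.3 CPM, those of Dcx 726, 319, 31.2 and 13.3 CPM, and those of Stmn4 141, 27.8, 0 and 3.32 CPM. All 5 thus stepped down from neuroblasts to type C cells and again to both type B subtypes. The subtypes are clusters of these same cells and genes, so differences between them are given here as descriptions without a test.

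Cell by cell, 71 of the 80 neuroblasts (88.8%) held a UMI of at least 4 of the 5 markers and 79 held at least 3. Of the type C cells, 25 of 47 held at least 4, and of the 45 activated and 50 quiescent type B cells none did. With each cell thinned to 1000 UMIs to even out the depth, 47.5% of neuroblasts (95% exact interval 36.2 to 59.0) had a Dcx UMI, against 21.3% of type C cells and 0.481% of microglia, which should lack it. For Stmn2 these shares were 72.5% (61.4 to 81.9), 23.4% and 1.68%. Without thinning 96.3% of neuroblasts had a Dcx UMI and 97.5% a Stmn2 UMI. The clusters were drawn on these same cells and genes, so these shares describe the label and do not test it. What separated neuroblasts from type C cells was the level of the markers more than their presence.

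The 200 bases upstream of the start sites of the 5 markers were read from GRCm39 with the Gencode annotation, and those of Dcx (chrX:142716132-142716331, minus strand) and Stmn2 (chr3:8574155-8574354, plus strand) are shown, since Dcx is the usual marker of migrating neuroblasts and Stmn2 stood far above the other subtypes. Letters run 5′ to 3′ and end at the base before the start site, and capitals mark TAATTA, the core letters bound by many homeodomain proteins, among them the DLX factors described further on.
Dcx: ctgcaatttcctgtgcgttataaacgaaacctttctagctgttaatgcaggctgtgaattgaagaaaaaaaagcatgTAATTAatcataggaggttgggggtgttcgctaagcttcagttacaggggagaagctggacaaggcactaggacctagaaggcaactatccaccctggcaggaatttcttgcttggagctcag
Stmn2: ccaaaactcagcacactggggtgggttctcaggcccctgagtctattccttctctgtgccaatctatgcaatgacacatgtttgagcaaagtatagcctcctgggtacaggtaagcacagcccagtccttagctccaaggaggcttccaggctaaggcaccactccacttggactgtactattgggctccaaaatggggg
TAATTA was searched on both strands, which read the same for this palindrome. It occurred once upstream of Dcx, 123 bases before the start site, and not in the windows of the other 4 markers, and 3.97% of all 21770 protein-coding promoters of this length held it. The E-box CAGCTG, also a palindrome, occurred in none of the 5 windows and in 9.76% of all promoters. A match of letters is a description of the window and no evidence of binding.

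The markers were also read library by library. Tubb3 was at 1654 and 1321 CPM in the uninjured libraries, 1104 and 1144 CPM at PT D1 and 1047 and 1390 CPM at PT D7, and Stmn2 at 1083, 980, 607, 906, 1595 and 1426 CPM in that order. Dcx lay between 541 and 888 CPM in all 6. Stmn4 rested on few molecules, with 0 UMIs in the PT D1 library 2 (under 47.7 CPM, the level of 3 UMIs there) and 34 in the uninjured library 2. Tubb3 and Stmn2 exceeded type C cells in all 6 libraries, and Dcx, Stmn4 and Cd24a in 5.

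**Figure D1:**
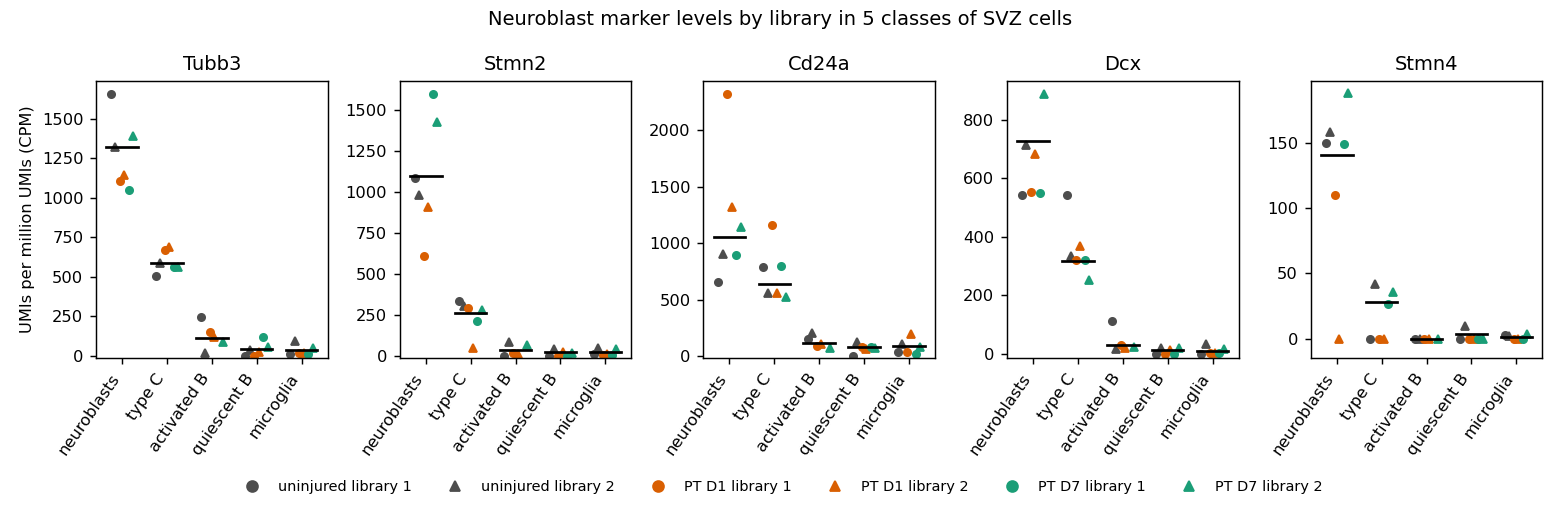
Levels of the 5 neuroblast markers (vertical axis, CPM) in the NSPC subtypes and microglia, with 1 point per library. Neuroblasts stand highest for each gene in the pooled cells, type C cells come next, and the Stmn4 point at 0 CPM is the PT D1 library 2.

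Beyond the markers, 22 of the 512 genes with at least 200 CPM in neuroblasts (4.3%) were at least 2-fold above the highest of the other 3 subtypes, after 10 CPM was added to each level. Of the 908 genes with at least 200 CPM in another subtype, 20 (2.2%) were at least 2-fold below the lowest of the other 3. The genes with the largest excess that also exceeded type C cells in at least 5 libraries were mostly neuronal. Stmn2 had a log2 ratio of 2.03 over the next subtype, and Mllt11, Zfp704 and Nrep had ratios of 2.01, 1.94 and 1.69.

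Other leading genes fell into a few roles. Map1b (log2 ratio 1.30) and Dpysl5 (1.24) encode a microtubule-associated protein and a collapsin response mediator, and Tiam2 (1.40) an activator of the small GTPase RAC. Gad1 (1.36) encodes an enzyme that makes GABA, and Dlx6os1 (1.23) is a long noncoding RNA of the Dlx5 and Dlx6 locus. Dlgap4 (1.67) and Aplp1 (1.41) encode a postsynaptic scaffold and a neuronal relative of the amyloid precursor, and Btg1 (1.21) an antiproliferative factor. Map1b was at 952 CPM in neuroblasts and 382 CPM in type C cells, Gad1 at 224 and 80.9 CPM, and Btg1 at 469 and 197 CPM, each higher in neuroblasts in 6 of 6 libraries. Dcx (1.16) and Tubb3 (1.15) were also among them.

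Among the 10 genes most depleted from neuroblasts, chosen with no minimum level, were genes of neural stem cells. Fabp7, a fatty acid binding protein of radial glia and stem cells, had 5 UMIs in 80 neuroblasts (10.9 CPM) against 78.4 CPM in type C, 372 CPM in activated and 259 CPM in quiescent type B cells. Lhx2, a LIM homeobox factor of progenitors, was at 28.3 CPM against 111, 331 and 299 CPM, and Gli3, a mediator of hedgehog signaling, had 1 UMI against 32.9, 67.3 and 116 CPM. Cad, which encodes the enzyme that starts pyrimidine synthesis, had 0 UMIs in neuroblasts, which allows up to 6.52 CPM, and was at 30.4 CPM in type C cells, so that its place among the 10 rests on this 0. The other 6 were Adk, Calu, Fkbp5, Eif4ebp1, Mrps6 and Ifrd1, with 1 to 7 UMIs each in neuroblasts. The direction of Fkbp5 was reversed in thinned cells (log2 ratio -1.17).

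**Figure D2:**
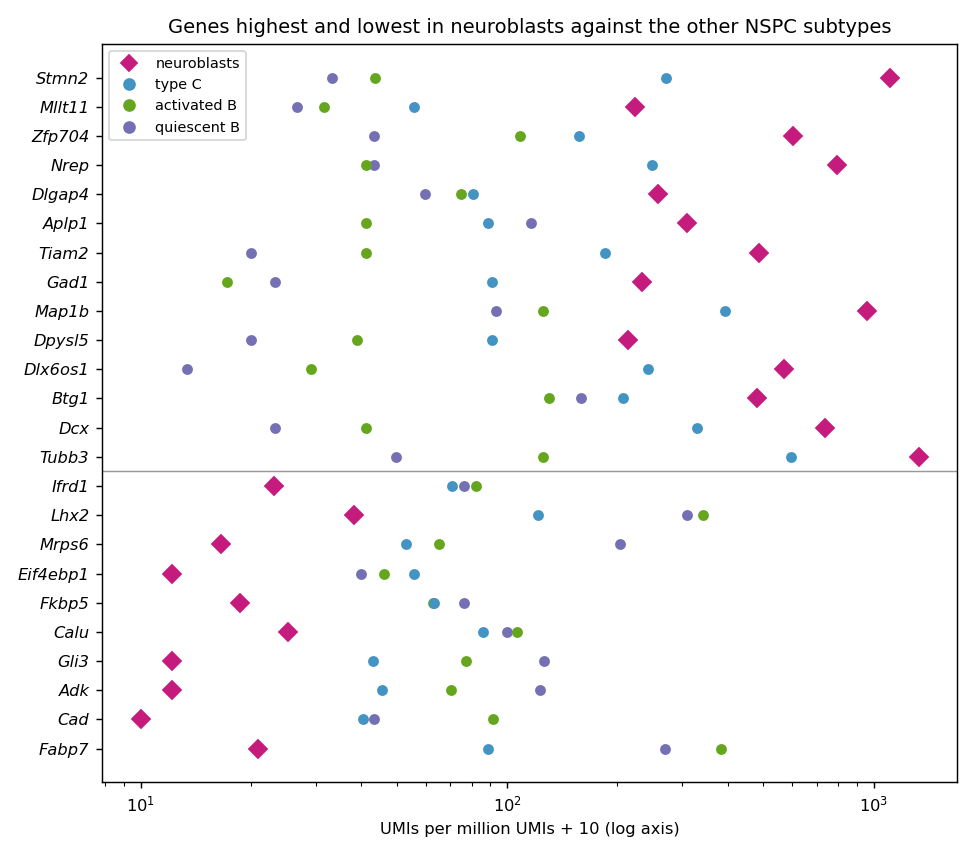
Levels (CPM plus 10, log axis) in neuroblasts and the other 3 NSPC subtypes of genes highest above and the 10 lowest below the other subtypes. Stmn2, Mllt11 and Zfp704 exceed the next subtype by log2 ratios of 2.03, 2.01 and 1.94, and on the low side Fabp7 is at 10.9 CPM in neuroblasts and 78.4 CPM in type C cells.

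Genes of migration separated neuroblasts from type B cells more than from type C cells. Of 24 cytoskeletal genes with at least 50 CPM in any subtype, 6 were at least 2-fold higher and 1 lower in neuroblasts than in type C cells, while 17 were higher and none lower than in quiescent type B cells. Over all 4822 genes at that level these counts were 190 and 643, and 806 and 867. Tuba1a and Stmn1 were not lower in type C cells (6728 and 2767 CPM) than in neuroblasts (5951 and 2091 CPM) but lower in quiescent type B cells (1580 and 206 CPM). Basp1, a membrane protein of growth cones, and Tubb2a went further up from type C cells (774 and 574 CPM) to neuroblasts (1587 and 1324 CPM), in 6 of 6 libraries each.

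Adhesion and guidance genes were higher in neuroblasts than in type C cells by at least 2-fold in 7 of 16 and lower in none, with a median log2 ratio of 0.79 against -0.27 over all 4822 genes. Ncam1, which carries polysialic acid on migrating neuroblasts, was at 854 CPM against 622 CPM in type C cells and 143 CPM in quiescent type B cells. Nrxn3, a presynaptic adhesion molecule, was at 378 and 180 CPM in neuroblasts and type C cells, Plxna2, a semaphorin receptor subunit, at 235 and 91.1 CPM, and Robo2, a receptor for SLIT, at 78.2 and 27.8 CPM. Vldlr, a receptor for reelin, was at 67.4 CPM in neuroblasts, 15.2 CPM in type C cells and 0 in quiescent type B cells, from 31 UMIs. Lrp8, the other reelin receptor, had 11 UMIs in neuroblasts (23.9 CPM) and was not higher there than in type C cells (43.0 CPM).

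The transcription factors of the interneuron lineage were shared with type C cells. Of 27 such genes, 4 were at least 2-fold higher and 1 lower than in type C cells, with a median log2 ratio of 0.08, whereas 20 were higher and 1 lower than in quiescent type B cells. Dlx1 and Dlx2, homeodomain factors of GABAergic fate, were at 1039 and 700 CPM in neuroblasts and at 1255 and 938 CPM in type C cells. Sox11 was at 2660 and 3058 CPM. Meis2 and Sp8, found in olfactory interneurons, went the other way, with 563 and 152 CPM in neuroblasts against 273 and 75.9 CPM in type C cells, in 6 of 6 libraries each. Of 8 GABA genes 2 were at least 2-fold above type C cells and none below. Gad1 was among the former, while Gad2, which encodes the other form of the enzyme, was at 315 and 159 CPM.

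Some progenitor regulators were lower. Of 22 such genes, 1 was at least 2-fold above and 6 below type C cells, and 12 were below activated type B cells. Of all 4822 genes 13.3% were that far below type C cells and 20.4% below activated type B cells. Egfr, the receptor for epidermal growth factor, was at 15.2 CPM in neuroblasts, 55.6 CPM in type C cells and 394 CPM in activated type B cells. Hes5, a target of Notch, had 0 UMIs in neuroblasts and was at 176 CPM in quiescent type B cells. Sox2 stayed within a narrow range, at 517, 691, 689 and 611 CPM from neuroblasts back to quiescent type B cells. All 12 markers of quiescent type B cells and astrocytes were at least 2-fold below their level in quiescent type B cells, and Gfap had 6 UMIs in neuroblasts.

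Of 32 apoptosis genes 29 had a UMI in neuroblasts and 12 reached 50 CPM in any subtype. Of these 12, 1 was at least 2-fold above and 3 below type C cells, where 3.94% and 13.3% of all 4822 genes were, with a median log2 ratio of -0.52. The gene above was Mcl1, an antiapoptotic member of the BCL2 family, at 102 CPM against 43.0 CPM in type C cells, 125 CPM in activated and 159 CPM in quiescent type B cells. Of 19 genes of contact with microglia 17 had a UMI in neuroblasts, and they summed to 1243 CPM, against 2082 CPM in type C cells and 3241 CPM in quiescent type B cells. Of the 12 that reached 50 CPM none was 2-fold above and 3 were below type C cells, and 7 were below quiescent type B cells. Cx3cl1 and Il34, ligands for microglial receptors, had 0 UMIs in neuroblasts, and Cd47, a signal against phagocytosis, was at 167 CPM against 119 CPM in type C cells. Of 17 immediate early and stress genes 1 was 2-fold above and 9 below quiescent type B cells. Among all 4822 genes 16.7% were that far above and 18.0% below quiescent type B cells.

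Microglial transcripts were present at a low level in sorted NSPCs. The 12 microglial markers summed to 1300 CPM in neuroblasts, 1131, 1271 and 1876 CPM in type C, activated and quiescent type B cells, and 23851 CPM in microglia, and 65 of 80 neuroblasts held at least 3 of them. C1qb held the most of these UMIs in neuroblasts, 270 of 598, and no marker of the list was at 0. Neuroblasts thus stood at the level of the other NSPCs. The part of these transcripts in the results was not tested beyond the refit on neuroblasts with fewer than 3 of these genes. A group of 4 predicted genes, Gm10800, Gm26870, Gm10717 and Gm10715, took 23.8% of the UMIs of neuroblasts, 11.3% in type C cells, 10.7% in activated and 22.0% in quiescent type B cells and 33.9% in microglia. Scaled to the UMIs outside these 4 genes, a scale chosen after the data were seen, 35 rather than 22 genes were at least 2-fold above the other subtypes, and the log2 ratio of Stmn2 became 2.26 and that of Dcx 1.38.

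Of the 80 neuroblasts, the authors' Phase column put 48 in G1 (60.0%, 95% exact interval 48.4 to 70.8), 17 in S (21.3%, 12.9 to 31.8) and 15 in G2M (18.8%, 10.9 to 29.0). Of the 47 type C cells 0 were in G1, 25 in S and 22 in G2M, and of the 50 quiescent type B cells 47 were in G1. Neuroblasts thus lay between a subtype called all in cycle and a subtype called nearly all out of it. Microglia, most of which do not divide, were called S in 3.61% and G2M in 3.37% of cells, beside which the calls in neuroblasts are read. The sources used here do not say how Phase was called.

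The genes behind the calls differed between S and G2M neuroblasts. With each cell thinned to 1000 UMIs, neuroblasts called G2M held a mean of 12.1 UMIs of the 54 G2/M genes, against 1.73 in G1 neuroblasts, 18.2 in G2M type C cells and 1.49 in G1 quiescent type B cells. Neuroblasts called S held a mean of 1.82 UMIs of the 43 S genes, against 0.771 in G1 neuroblasts and 7.20 in type C cells called S. The S call in neuroblasts thus rested on about 1 UMI per thinned cell, a level near that of microglia called S (1.73). In pooled cells single S genes were higher in S than in G1 neuroblasts, with Mcm6, a subunit of the replicative helicase, at 144 against 31.3 CPM (15 and 8 UMIs), Pcna at 144 against 54.7 CPM (15 and 14 UMIs) and Cdca7 at 585 against 250 CPM (61 and 64 UMIs). The calls were made on these same cells, so these levels describe the calls, and the number of S neuroblasts in S phase is not read from them.

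Single G2/M genes followed the G2M calls, which were made on the same cells. Mki67, the proliferation antigen, was at 880 CPM in G2M neuroblasts, 9.60 CPM in those called S and 11.7 CPM in those called G1, and Top2a, the DNA topoisomerase of mitotic cells, at 870, 48.0 and 39.1 CPM. Dcx was at 793 CPM in G1, 681 CPM in S and 600 CPM in G2M neuroblasts, and Tubb3 at 1462, 1113 and 1160 CPM. G2M neuroblasts held a mean of 4.60 thinned UMIs of the 5 markers, against 4.75 in G1 neuroblasts and 2.05 in G2M type C cells. The subtypes are clusters of these same cells and genes, so the difference from type C cells describes the label. Gad2 was at 367, 307 and 190 CPM in G1, S and G2M neuroblasts. Ccnd2, the D-type cyclin of neuroblasts, was at 3482, 5067 and 3849 CPM in the same order, against 5673 CPM in type C cells.

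As lists, the S genes summed to 1417 CPM in neuroblasts, 6285 CPM in type C, 4778 CPM in activated and 578 CPM in quiescent type B cells, and the G2/M genes to 4940, 13800, 12071 and 1717 CPM. Of 36 S genes with at least 50 CPM in any subtype, 35 were at least 2-fold below type C cells and none above. Of 53 G2/M genes 39 were below type C cells and 42 above quiescent type B cells. Pcna, the sliding clamp of DNA replication, was at 72 CPM in neuroblasts and 562 CPM in type C cells, and Hmgb2, a chromatin protein, at 563 and 2231 CPM.

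By condition, 21 of 35 uninjured neuroblasts were in G1 (60.0%, 42.1 to 76.1), 15 of 19 at PT D1 (78.9%, 54.4 to 93.9) and 12 of 26 at PT D7 (46.2%, 26.6 to 66.6). G2M neuroblasts were 5 of 35 (14.3%), 2 of 19 (10.5%) and 8 of 26 (30.8%). By library the G2M cells were 1 of 6 and 4 of 29 uninjured, 0 of 4 and 2 of 15 at PT D1, and 3 of 5 and 5 of 21 at PT D7. The PT D7 libraries lay above the other 4 with overlapping binomial intervals, and no test is given, since an exact two-sided permutation of 2 libraries against 2 gives no p below 0.333.

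**Figure D3:**
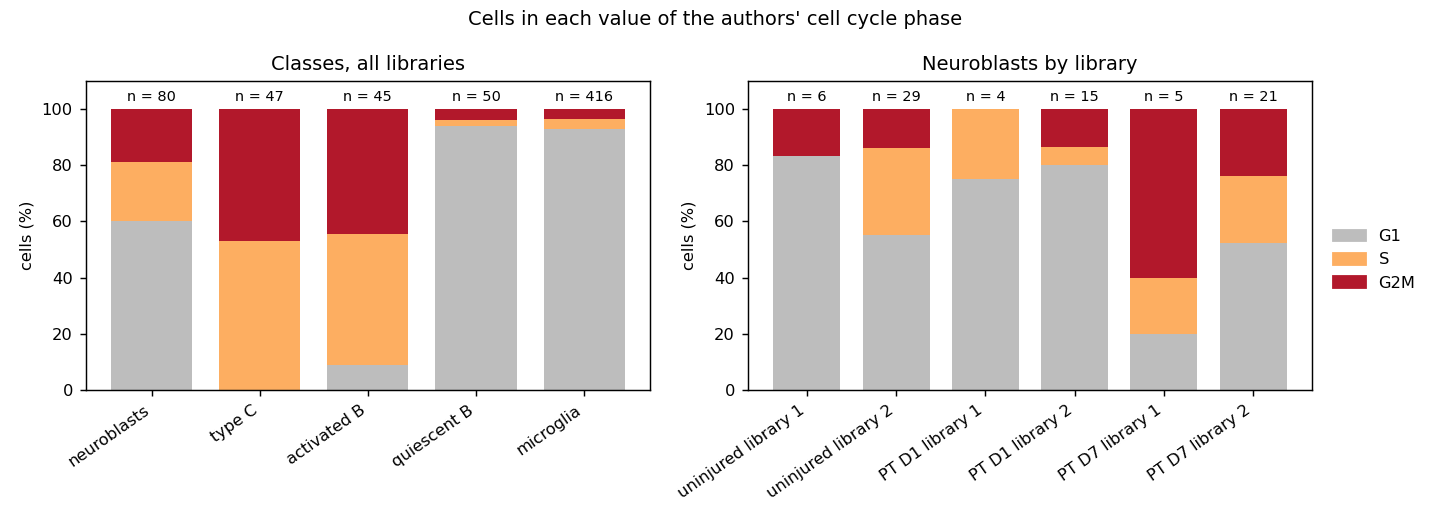
Share of cells (percent) in each value of the Phase column for the NSPC subtypes and, for neuroblasts, by library. Neuroblasts are 60.0% G1 where type C cells are 0%, and the PT D7 libraries hold 3 of 5 and 5 of 21 neuroblasts in G2M.

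A few neuroblasts stood apart from the rest, and results that rest on them are given with and without them. In 3 neuroblasts (1 in each uninjured library and 1 in the PT D7 library 2) 12 to 21 UMIs of 9 glutamatergic lineage genes, among them Eomes, Tbr1 and Neurod1, made up 47 of the 55 such UMIs of all neuroblasts. The other 77 had at most 1 each, and 69 had none. These 3 cells held 0, 0.449 and 0.531 UMIs of 11 interneuron lineage genes per 1000, below the range of the other 77 (median 4.31, 0.596 to 10.5). All 3 nonetheless had Dcx and Tubb3 UMIs.

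In the uninjured library 2, 1 neuroblast held 13 UMIs of Mag, 4 of Mog and 8 of Sox10, markers of oligodendrocytes, beside 4 UMIs of Dcx. Another 4 cells held 37 to 79 UMIs of Mbp, the myelin basic protein gene, without Mag, Mog or Sox10, 3 of them in the PT D7 library 2. In the uninjured library 2, 1 more neuroblast held 223 UMIs of Ttr and 19 of Enpp2, genes of the choroid plexus. These cells were 8 in all, since 1 was both rich in Mbp and in glutamatergic genes, and 72 neuroblasts were left without them. Whether they were doublets was not tested.

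Next, the conditions were compared on UMIs summed over the neuroblasts of each library, with edgeR's quasi-likelihood F-test over 688 genes that passed the filter on low counts. In neuroblasts at PT D1, 2 genes fell and none rose against uninjured neuroblasts at a Benjamini-Hochberg adjusted p under 0.05, which is 0.291% of the genes tested, and 88 genes (12.8%) had an unadjusted p under 0.05. DESeq2 called Ttr alone. Each fit without 1 library, here and below, leaves a condition with 1 library, whose spread is then taken from the other conditions. The edgeR fit called 11 and 8 genes without the uninjured library 1 or 2, 4 and 17 without the PT D1 library 1 or 2, and 17 and 6 without the PT D7 library 1 or 2, and Ttr was among them each time. On the 72 neuroblasts left without the 8 cells above, Ttr was the only gene called at PT D1. Ttr encodes transthyretin, the thyroid hormone carrier made by the choroid plexus. At PT D7, Ttr alone fell (0.145%) with 37 genes at an unadjusted p under 0.05 (5.38%), and without 1 library in the same order 3, 3, 8, 10, 4 and 1 genes were called, again with Ttr each time. Between PT D7 and PT D1 edgeR called 0 genes (64 at an unadjusted p under 0.05, 9.3%) and DESeq2 called 0 (15 at an unadjusted p under 0.05). Without 1 library in that order edgeR called 5, 6, 2, 9, 9 and 0 genes here.

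Ttr had 45 and 695 UMIs in uninjured neuroblasts (1353 and 3244 CPM), 2 and 2 UMIs at PT D1 (110 and 31.8 CPM) and 1 and 3 UMIs at PT D7 (49.8 and 26.9 CPM). The uninjured libraries lay far above all 4 PT libraries. The log2 fold change was -5.76 ± 0.61 (SE) at PT D1 (edgeR adjusted p = 1.83e-04) and -6.30 ± 0.61 at PT D7 (adjusted p = 5.63e-05). Ttr reached the level of the filter in 2 libraries only with the uninjured ones, where it is high, so these values are a description. With no filter on low counts they were -5.79 (edgeR adjusted p = 4.16e-10) and -6.29 (4.42e-12). Over the alternatives they ran from -8.55 to -4.72 at PT D1 and from -8.55 to -5.10 at PT D7. As a ratio of pooled counts, the uninjured level was 60.6 times that of PT D1 (95% counting interval 23.6 to 223) and 98.4 times that of PT D7 (38.3 to 362), and 44.2 and 71.8 times without the cell with 223 UMIs.

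The difference in Ttr was not limited to neuroblasts. A Ttr UMI was found in 35 of 35 uninjured neuroblasts and in 5 of 45 after PT, in 15 of 15 and 8 of 32 type C cells, in 17 of 17 and 6 of 33 quiescent type B cells, and in 154 of 155 and 54 of 261 microglia. In microglia Ttr was at 9841 and 4167 CPM in the uninjured libraries and at 186 to 553 CPM in the 4 PT libraries. The 8 choroid plexus markers summed to 1474 and 3814 CPM in uninjured neuroblasts, 166 and 48 CPM at PT D1 and 249 and 54 CPM at PT D7, Ttr held the most UMIs of the list (748 of 883), and none of the 8 was at 0 over all neuroblasts. The part of choroid plexus RNA in this result was not tested.

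The smallest p-values at PT D1 after the called genes did not pass the adjustment. The mitochondrial gene mt-Nd4l was at 1534 and 1162 CPM in uninjured neuroblasts and at 552 and 651 CPM at PT D1 (log2 fold change -1.26 ± 0.28, edgeR adjusted p = 0.123). Malat1, a nuclear noncoding RNA, was at 5113 and 4575 CPM against 3201 and 1637 CPM (-1.28 ± 0.30, adjusted p = 0.127). Both were called without some libraries, Malat1 without the uninjured library 2 (adjusted p = 0.0189), the PT D1 library 1 (4.00e-04) and the PT D7 library 1 or 2 (6.88e-05 and 0.0269), and mt-Nd4l without the uninjured library 2 (0.0198), the PT D1 library 2 (0.0479) and the PT D7 library 1 or 2 (0.00277 and 0.0404). The libraries did not overlap for either gene, nor for 309 of the 688 genes tested (44.9%). With no scaling by TMM the 688 genes had a median log2 fold change of 0.22 at PT D1, 0.08 at PT D7 and, from PT D1 to PT D7, of -0.14, and with it the medians at PT D1 and PT D7 were 0.02 and 0.01.

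At PT D7, Rps29, a ribosomal protein gene, was at 692 and 509 CPM in uninjured neuroblasts and at 349 and 206 CPM (log2 fold change -1.31 ± 0.33, edgeR adjusted p = 0.378), and the predicted gene Gm44044 at 391 and 588 CPM against 249 and 215 CPM (-1.31 ± 0.35, adjusted p = 0.378). Fth1, the ferritin heavy chain gene, was at 361 and 528 CPM against 748 and 1318 CPM (1.17 ± 0.32, adjusted p = 0.378). All 3 were called without the PT D1 library 1 (adjusted p = 0.0395 each) and without the PT D1 library 2 (0.0369 for Rps29 and Gm44044 and 0.0214 for Fth1), and Fth1 also without the PT D7 library 1 (0.0140). None of the 3 overlapped between the conditions, as was the case for 260 of the 688 genes (37.8%), 19.5% of the genes tested being higher and 18.3% lower at PT D7. From PT D1 to PT D7 Fth1 differed by 1.62 ± 0.37 (adjusted p = 0.121), and it was called there without the uninjured library 1 or 2 (0.0380 and 0.00307), the PT D1 library 2 (0.0372) and the PT D7 library 1 (1.09e-04).

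Between the PT time points Top2a and Mbp had the smallest p-values. Top2a had 0 and 48 UMIs in the uninjured libraries, 0 and 1 1 day after PT and 11 and 42 7 days after it, or 0 and 224, 0 and 15.9, and 548 and 377 CPM. The log2 fold change from PT D1 to PT D7 was 5.05 ± 1.10 (edgeR adjusted p = 0.121), and the ratio of pooled counts 32.6 (95% counting interval 5.61 to 1313), from 1 UMI at PT D1. Top2a reached the level of the filter in 2 libraries only with those of PT D7, where it is high, so these values are a description. Mbp had 1 and 8 UMIs 1 day after PT and 3 and 232 UMIs 7 days after it, of which 208 lay in 3 cells of the PT D7 library 2 (3.81 ± 0.85, adjusted p = 0.121). The 11 oligodendrocyte markers summed to 541 and 1793 CPM in the uninjured libraries, 166 and 175 CPM at PT D1 and 648 and 2421 CPM at PT D7, with Mbp the gene of most UMIs and none at 0. Of these UMIs 337 of 384 in the uninjured library 2 and 234 of 270 in the PT D7 library 2 lay in the 5 neuroblasts rich in oligodendrocyte genes described above, and without them these 2 libraries were at 247 and 388 CPM. The part of these markers in the Mbp result was not tested. Rbm3, a cold-induced RNA-binding protein, was at 662 and 461 CPM at PT D1 against 199 and 89.7 CPM at PT D7 (-2.08 ± 0.47, adjusted p = 0.121). Rbm3 reached the level of the filter in 2 libraries only with those of PT D1, where it is high. Its values, here and in the fits below, are therefore a description. Without 1 library Mbp was called in all fits but that without the PT D7 library 2 (adjusted p at most 7.28e-04 where called), and Rbm3 without the uninjured library 1 or 2 or the PT D7 library 1 (at most 0.0489). The PT D1 and PT D7 libraries did not overlap for these 3 genes, nor for 277 of the 688 tested (40.3%).

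**Figure D4:**
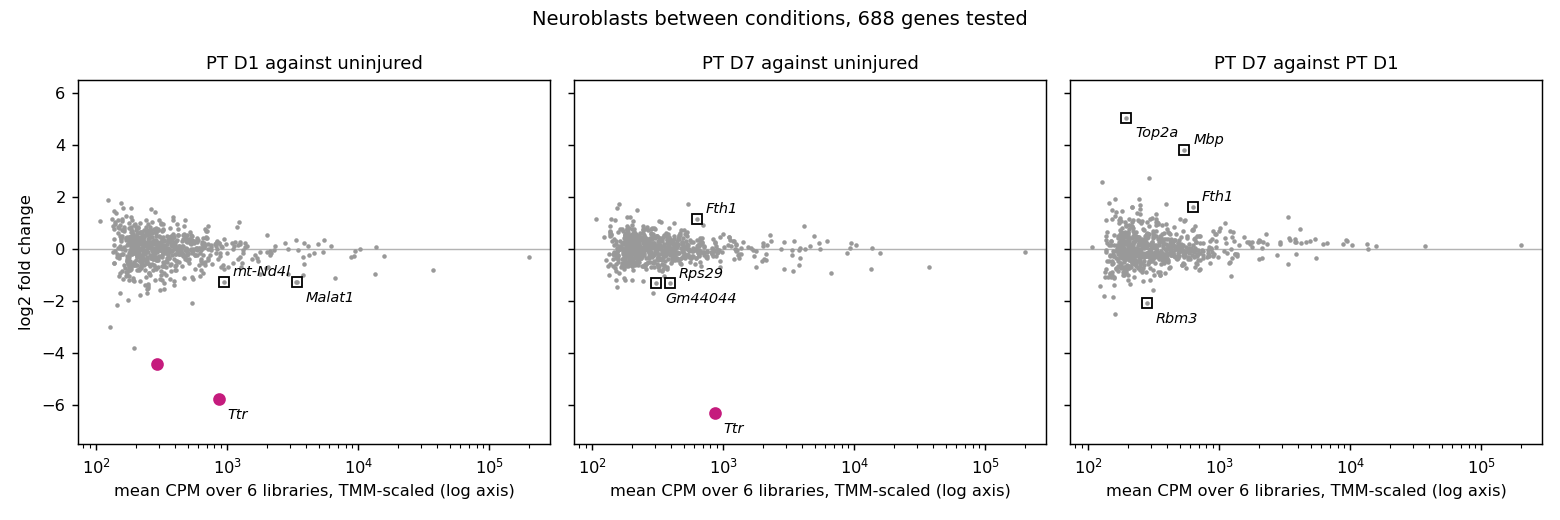
Log2 fold change of the 688 genes tested in neuroblasts against their mean CPM (log axis) for the 3 comparisons, with called genes marked. Ttr lies at -5.76 at PT D1 and at -6.30 at PT D7, and no gene is called between PT D7 and PT D1.

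**Figure D5:**
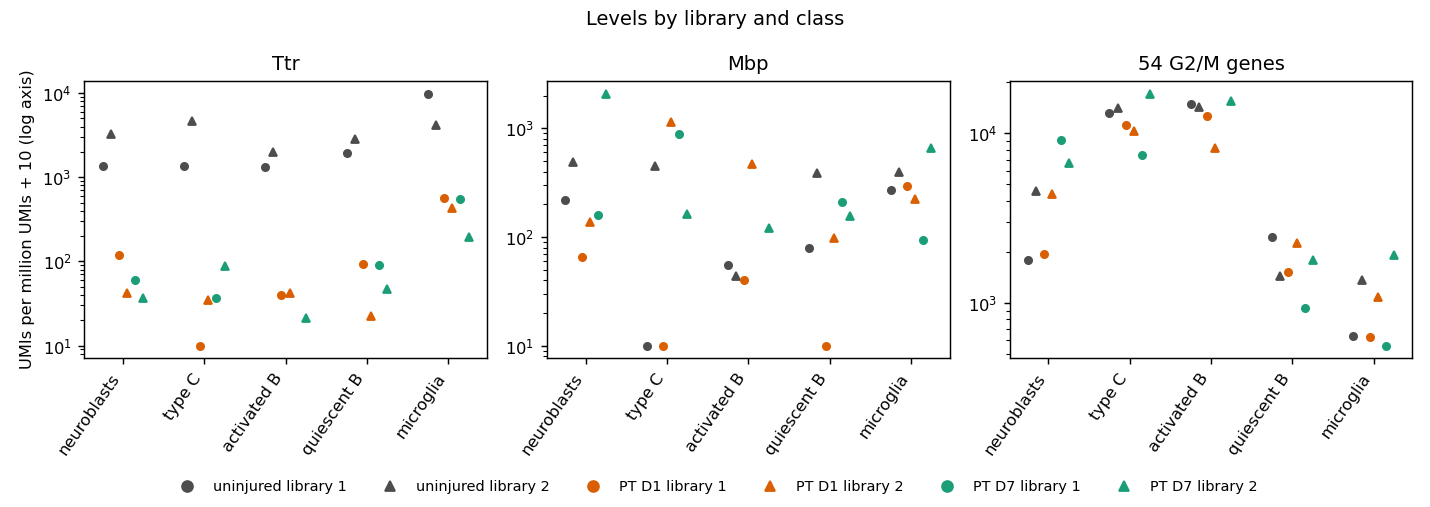
CPM plus 10 (log axis) of Ttr, Mbp and the sum of the 54 G2/M genes in the NSPC subtypes and microglia, with 1 point per library; the PT D7 library 1 held no activated type B cell. Ttr is at 1353 and 3244 CPM in uninjured neuroblasts and at most 110 CPM in those of the 4 PT libraries, and both uninjured libraries are highest in the other 4 classes shown too.

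The neuroblast markers did not pass in any comparison over the 6 libraries (4 of 5 tested, since Stmn4 was below the filter). Stmn2 had log2 fold changes of -0.53 ± 0.27 at PT D1 (edgeR adjusted p = 0.488) and 0.47 ± 0.25 at PT D7 (adjusted p = 0.959), and its difference between the time points was 1.00 ± 0.27 (adjusted p = 0.211). Cd24a was at 662 and 906 CPM in uninjured neuroblasts and at 2318 and 1319 CPM at PT D1 (0.84 ± 0.31, adjusted p = 0.289). Without the PT D1 library 2 its log2 fold change was 1.21, from the 4 neuroblasts of 1 library at PT D1. Dcx differed by -0.24 ± 0.33 and 0.19 ± 0.30 at the 2 times (adjusted p = 0.851 and 0.971). A value that misses the threshold here does not show that the marker was unchanged.

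The G2/M list had 7 of 54 genes that passed the filter on low counts and none called at PT D7. Some, among them Top2a, Mki67, Ube2c and Tmpo, reached the filter's level in 2 libraries only with those of PT D7, so no count over the 7 is read. Ube2c, a ubiquitin enzyme of mitosis, was at 0 and 121 CPM in the uninjured libraries and at 349 and 332 CPM at PT D7. Over all its 54 genes the list summed to 1774 and 4542 CPM in the uninjured libraries, 1932 and 4385 CPM at PT D1 and 9171 and 6688 CPM at PT D7. The PT D7 libraries lay highest, as in the Phase column, which was read from the same cells.

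The interneuron transcription factors had 17 of 30 genes tested and none called. Dlx1 was at 722 and 906 CPM in uninjured neuroblasts, 2649 and 1541 CPM at PT D1 and 897 and 870 CPM at PT D7. Its log2 fold change at PT D1 was 1.02 ± 0.29 (edgeR adjusted p = 0.202). Without the PT D1 library 2 it was 1.37, from the 4 neuroblasts of 1 library at PT D1. The list summed to 14226 and 14182, 18653 and 16238, and 14454 and 13825 CPM. The apoptosis list had no gene that passed the filter, so the test says nothing of it.

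Finally, the response of neuroblasts was set against that of their neighbors in the lineage by a test of the difference of the effects. Against type C cells (781 genes) edgeR called 0 genes at PT D1 (31 at an unadjusted p under 0.05) and 0 at PT D7 (21), and DESeq2 called 0 in both. At PT D1 edgeR called 5 and 6 genes without the PT D1 library 1 or 2, 4 and 6 without the PT D7 library 1 or 2, 0 without either uninjured library and 2 without the 8 cells (Asprv1 and Gsto1). Asprv1, a skin protease gene, Gsto1, a glutathione transferase gene, Krt12, a corneal keratin gene, and Mbp were each called without the PT D1 library 1 and without either PT D7 library, with a lower effect in neuroblasts, and not without the PT D1 library 2. That library was the highest of the 6 for Asprv1, Gsto1 and Krt12 in type C cells, quiescent type B cells, microglia and neuroblasts alike. Asprv1 reached the level of the filter only with the sums of that library, where it is high, so its calls are a description. Gsto1 was at 4111 CPM in its type C cells against 465 CPM in the PT D1 library 1, at 8300 against 734 CPM in microglia and at 620 against 110 CPM in neuroblasts, and Krt12 in microglia at 7383 against 673 CPM. The part of this library-wide excess in the calls was not tested. At PT D7 it called 1 (Mbp) and 2 genes without the PT D7 library 1 or 2. Against quiescent type B cells (923 genes) it called 1 at PT D1 (0.108%) and 0 at PT D7 (20 at an unadjusted p under 0.05). The gene was Egr1, an immediate early transcription factor, which was at 120 and 65.4 CPM in uninjured neuroblasts and 55.2 and 95.3 CPM at PT D1, while quiescent type B cells had 0 and 19.2 CPM uninjured and 1170 and 656 CPM at PT D1. The effect in neuroblasts was lower by 5.24 ± 1.23 on the log2 scale (adjusted p = 0.019), from 4 and 14 UMIs in uninjured and 1 and 6 in PT D1 neuroblasts. Egr1 reached the level of the filter in 2 sums only with those of PT D1 quiescent type B cells, where it is high. Its values and the call are therefore a description. The call was lost with DESeq2 and without either uninjured or either PT D1 library, where the edgeR adjusted p was 0.357, 0.442, 0.729 and 0.414 in that order.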

How the data were processed

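The authors deposited UMI counts per gene and cell (34203 features, of which 92 are spike-ins with 0 UMIs, and 658 cells), with a cell table that holds total UMI counts, the percent of mitochondrial UMIs, S and G2M scores, Phase and the class names. Per the labels and the study's methods, mCEL-Seq2 libraries of 192 sorted wells were demultiplexed with bcl2fastq 2.17.1.14, named in the submitters' processing notes, and aligned to GRCm39, and cells were kept by the authors if they had over 1000 UMIs, did not exceed 3 median absolute deviations from the median and had a mitochondrial share of 25% or less, and were clustered in Seurat. The aligner, the counter and the method behind the deposited scores were not given in the sources used here. Deposited percent values were used only to choose cells and to describe depth. Another 10 columns of the cell table were not used. The matrix is not known to use strand, so overlapping genes cannot be told apart.

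UMIs were summed over the neuroblasts of each library and tested with edgeR 4.0.16 (R 4.3.3; TMM, filterByExpr, quasi-likelihood F-test, condition as the only term, all 6 libraries in 1 fit), with Benjamini-Hochberg adjustment over all genes tested and calls at an adjusted p under 0.05. SE is the log2 fold change over the square root of F. Differences of effects between subtypes were tested as interactions with the library as a block. Levels are CPM of pooled UMIs, ratios add 10 CPM, and no doublet caller was run. A UMI is 6 random bases, and intervals are exact (Clopper-Pearson) at 95% and, like floors of 3 UMIs, cover counting error only. The steps were run on simulated counts, drawn with the same spread for all genes and 200 genes changed. At 2-fold, 16.1% of the changed genes tested were recovered at PT D1 and 44.3% at PT D7. At 4-fold these shares were 86.2% and 95.5%. In the interaction with type C cells at PT D1, 97.5% were recovered at 8-fold and 8.57% of the calls were false.

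Genes were named by rule: the 5 markers; the 15 highest above (at least 200 CPM, above type C cells in at least 5 libraries) and the 10 lowest below the other subtypes; called genes, or the 4 of smallest p where fewer than 4 were called; and, of 23 gene lists, the members with most UMIs. Some members with fewer UMIs (among them Robo2, Vldlr, Lrp8, Meis2, Sp8, Egfr, Hes5, Gfap, Cx3cl1, Il34, Cd47, Ube2c, Pcna, Mcm6 and Gsto1) were named after their values were seen. The members and lists were chosen with earlier results of these data known. Alternatives were DESeq2 1.42.0, other filters and scalings, a replicate block, thinned cells, subsets of cells and each library left out (a condition's remaining library was then assumed to vary like those of the other conditions); 2 (without 8 cells that stood apart, and levels outside 4 predicted genes) were chosen after seeing the data. Results for some genes that these rules name are not reported here.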

Additional observations from a re-analysis of the deposited data

Results flagged for a closer look

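The effect of PT D1 on Egr1 was called different between neuroblasts and quiescent type B cells, by -5.24 on the log2 scale (SE 1.23, edgeR adjusted p = 0.019). Egr1 passed the filter on low counts only with the PT D1 sums of quiescent type B cells, where it is high. These values are therefore a description. The call was lost in 5 of the 9 alternatives that tested Egr1, namely DESeq2 and the fits without either uninjured or either PT D1 library. Egr1 is an immediate early gene. In TMM-scaled CPM it was at 115 and 64.8 in uninjured neuroblasts and at 46.2 and 80.0 at PT D1, while quiescent type B cells went from 0 and 24.97 to 1209 and 693. The uninjured values of quiescent type B cells rest on 0 and 2 UMIs. Both PT D1 libraries of quiescent type B cells lay above every other library of either subtype. At PT D7 quiescent type B cells were back at 0 and 22.5. No explanation was tested.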

How the results depend on the processing

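Ttr was called in neuroblasts under every alternative that tested it except the refit on the 21 neuroblasts with at most 10% mitochondrial UMIs, which left the uninjured library 1 with 0 cells and called 0 genes at PT D1 and 0 at PT D7; the 15 neuroblasts with fewer than 3 microglial genes left none in the uninjured library 2 and again gave 0 and 0, and 1 (Mbp) between PT D7 and PT D1. At PT D1, 1 gene was called by DESeq2, without TMM, without the 8 cells and with only the 2 conditions, 7 with at least 5 UMIs in every library, 8 in G1 cells alone, 4 in thinned cells and 4 to 17 without 1 library. At PT D7 the counts were 3 in G1 cells and 1 to 10 without 1 library. Between PT D7 and PT D1 they were 2 with no filter (Mbp and Top2a), 1 without the 8 cells or with only the 2 conditions (Top2a) and 0 to 9 without 1 library. For the difference from type C cells they were 2 without the 8 cells and 0 to 6 without 1 library at PT D1 and 0 to 2 at PT D7. For that from quiescent type B cells at PT D1 they were 0 by DESeq2, with at least 5 UMIs in every sum and in thinned cells, and 0 to 1 without 1 library. The causes were not tested, beyond the smaller number of cells and libraries.

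Library numbers are shared between conditions without a stated meaning. The deviations of same-numbered libraries correlated at 0.06 (uninjured and PT D1), -0.03 (uninjured and PT D7) and 0.08 (PT D1 and PT D7), so the numbers were not taken to pair the libraries. With the replicate block the PT D1 comparison called 2 genes, the PT D7 comparison 1, and that of PT D7 against PT D1 called 1 (Mbp).

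Levels moved with the scale, with 35 in place of 22 genes 2-fold above the other subtypes outside the 4 predicted genes. The shares with a UMI rest on depth: at 2000 UMIs they were 80.8% for Dcx, 91.8% for Tubb3 and 82.2% for Cd24a, and without thinning 96.3% for Dcx, 97.5% for Stmn2, 37.5% for Stmn4, 100% for Tubb3 and 92.5% for Cd24a. Among the 15 genes highest above the other subtypes, 4 fell under 2-fold in an alternative. Their lowest log2 ratios were 0.43 (Dpysl5), 0.72 (Map1b), 0.86 (Dcx) and 0.88 (Btg1). That of Mllt11 went from 2.01 up to 2.81 with 1 library left out. Fkbp5 reversed in thinned cells (log2 ratio -1.17). The other reversals were of genes not called on either side. With at most 10% mitochondrial UMIs the adjusted p was 0.974 (Dcx, PT D1), 0.972 and 0.997 (Cd24a, PT D1 and PT D7), and 0.995 (Fth1) and 0.986 (Cd24a) between PT D7 and PT D1. With fewer than 3 microglial genes it was 0.698 (mt-Nd4l), 0.769 (Stmn2) and 0.978 (Tubb3) at PT D1 and 0.823 (Tubb3) at PT D7. In G1 cells Fth1 was at 0.991 (PT D7) and 0.998 (PT D7 against PT D1). Without the uninjured library 2 Dcx was at 0.990 (PT D1), without the uninjured library 1 at 0.998 (PT D7). Without the PT D7 library 2 the values were 0.825 (Dcx) and 0.963 (Cd24a) against uninjured, 0.955 (Dcx) and 0.960 (Tubb3) against PT D1, and 0.927 for Mbp against quiescent type B cells. Over the fits without 1 library the adjusted p ran from 0.730 to 0.9997 (Dcx, PT D1), from 0.0332 to 0.9997 (Cd24a, PT D1), from 0.825 to 0.9999 (Dcx) and 0.789 to 0.9999 (Cd24a) at PT D7, from 0.0140 to 0.998 (Fth1, PT D7) and from 1.09e-04 to 0.590 (Fth1, PT D7 against PT D1), from 0.624 to 0.958 (Dcx) and 0.714 to 0.960 (Tubb3) for PT D7 against PT D1, and from 0.232 to 1.00 for Mbp against quiescent type B cells. Levels in G1 cells alone were not run, since no type C cell was in G1. The small libraries, with 4 to 6 neuroblasts, limit every comparison.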

Other observations

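Of gene groups described little or not at all so far, cell cycle exit genes were led in UMIs by Ccnd2, and Cdkn1b, an inhibitor of cyclin-dependent kinases, was at 283 CPM in neuroblasts, 316 CPM in type C cells and 176 CPM in quiescent type B cells. Mdk, which encodes the growth factor midkine, led the genes of contact with microglia, at 385 CPM in neuroblasts, 971 CPM in type C cells and 740 CPM in activated type B cells; its log2 fold change in neuroblasts at PT D7 was 0.98 ± 0.30 (edgeR adjusted p = 0.592). Interferon and MHC genes summed to 265 CPM in neuroblasts, 1069 CPM in quiescent type B cells and 3113 CPM in microglia, with 45 UMIs of B2m and none of Irf7, Bst2 and Psmb8 in neuroblasts.

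Marker lists of mature neurons and of ependymal, endothelial and mural cells were low, whereas the 11 oligodendrocyte markers summed to 1519 CPM in neuroblasts, against 511, 577 and 468 CPM in type C, activated and quiescent type B cells, and the 8 choroid plexus markers to 1919, 1712, 507 and 1318 CPM. Of the 699 oligodendrocyte UMIs of neuroblasts 571 lay in 5 cells, and the other 75 neuroblasts were at 307 CPM, below the 3 other subtypes, from which no cell was left out. Without the cell richest in choroid plexus UMIs (254 of 883) neuroblasts were at 1399 CPM for that list, below type C cells. The 13 mature neuron markers summed to 113 CPM, with 22 UMIs of Rbfox3 and 7 of the 13 at 0. The 8 ependymal markers gave 11 UMIs in all neuroblasts and the 9 endothelial and mural markers 20 UMIs, and Cldn5, Pecam1 and Pdgfrb were at 0. The 8 type C markers summed to 776 CPM in neuroblasts and 3829 CPM in type C cells, and 55 of the 80 neuroblasts held a UMI of at least 1 of them.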
